A study of Mus musculus with 6 samples.

Results

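The genes described here are Mir23a, Mir27a and Mir24-2 on chromosome 8 and Mir23b, Mir27b and Mir24-1 on chromosome 13, which form the 2 mouse miR-23/27/24 clusters. These 6 genes were taken by name from the 1241 features of the deposited miRNA table. Small RNA was sequenced from Treg cells, the CD4+ T cells that restrain immune responses, of 3 WT and 3 knockout (miR-181a/b-1-/-, here KO) samples from mice aged 7 weeks. The labels give the strain background of all samples as C5BL6/N. The KO mice lack Mir181a-1 and Mir181b-1, which are made from a single primary transcript and are highly expressed in thymocytes. Each sample was a sort from pooled thymi, so a library is not a single mouse. The labels and the methods give the thymus as the tissue, while the results text of the study speaks of peripheral Treg cells. The comparison asks whether loss of miR-181a/b-1 changes other miRNAs.

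Each cluster is transcribed as a long primary RNA. Drosha and Dgcr8 cut hairpins out of it in the nucleus, Dicer1 trims each hairpin to a short duplex, and 1 strand of the duplex guides an Argonaute protein to mRNAs that match its seed. The members of a cluster therefore share their transcription but are processed hairpin by hairpin. In T cells, miR-24 and miR-27 are known as brakes on the type 2 helper programme, with Gata3 among the reported targets of miR-27 and Il4 among those of miR-24, and forced expression of miR-27 is known to impair Treg cells. The Mir23b cluster lies in 2010111I01Rik (also called Aopep), a gene for an aminopeptidase.

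Mature sequences of the 3 families are shown because reads are assigned to paralogous genes by the bases in which these differ. RefSeq (GRCm38.p6) held an entry for all 6 genes. Capitals mark the seed, bases 2 to 8 from the 5′ end. The miR-23 family, with the guide strands miR-23a-3p and miR-23b-3p, is made from Mir23a and Mir23b.
miR-23a-3p: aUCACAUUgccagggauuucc
miR-23a-5p: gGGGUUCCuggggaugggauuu
miR-23b-5p: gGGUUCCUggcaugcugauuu

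The hairpins of Mir23a and Mir23b share a longest run of 20 bases, and their 5p strands have different seeds. The miR-27 family is made from Mir27a and Mir27b.
miR-27a-3p: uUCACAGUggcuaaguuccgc
miR-27b-3p: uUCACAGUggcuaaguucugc

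These strands differ by 1 substitution, C19U from miR-27a-3p to miR-27b-3p (counted from the 5′ end), and their first 18 bases are identical. The longest run that the hairpins share is 20 bases. In the RefSeq table the seed UCACAGU occurs in no mature miRNA other than these 2, miR-27a-3p and miR-27b-3p. The miR-24 family is made from Mir24-2 and Mir24-1.
miR-24-3p: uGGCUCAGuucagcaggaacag
miR-24-2-5p: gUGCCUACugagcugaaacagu
miR-24-1-5p: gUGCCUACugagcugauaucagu

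The strand miR-24-3p is the same 22 bases in both genes, and the hairpins share a longest run of 28 bases. A read confined to miR-24-3p therefore matches both genes equally and has no unique alignment, while the 5p strands share a seed but differ further along. The seed GGCUCAG of miR-24-3p also occurs in miR-5124b, miR-6369, miR-6410 and miR-6413.

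The 6 libraries held between 168293 and 307840 counts on genes and between 1359 and 3422 on the features of the miRNA table, of which 178 had a count. Mir150 took 42.6% to 57.6% of a library's miRNA counts. Alignments that were not unique made up 41.7% to 46.2% of the records, and at least another 20.4% fell on more than 1 gene. The deleted genes could not be used to check the genotype, with 1 count on Mir181a-1 (in WT replicate 2) and 0 on Mir181b-1 in all libraries together. Of the Treg cell markers, Foxp3 had 17 to 39 counts per library, Il2ra 29 to 53 and Ikzf2 78 to 125, while Ctla4 had 1 count in all. Cd4, Cd3e, Ptprc and Mir150, which mark T cells or leukocytes in general, had counts in every library. Markers of double-positive thymocytes summed to 0 to 3 counts in WT and 3 to 4 in KO libraries, with Rag2 and Ptcra at 0. The 4 myeloid markers held 1 count (Itgam) with Mir223, Lyz2 and Csf1r at 0, and the 3 endothelial markers held 4 to 9 and 3 to 8 counts per library, all on Pecam1, with Cdh5 and Mir126a at 0. None of the 6 erythroid and 3 B-cell markers had a count in any library.

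Mir23a and Mir23b were among the best-counted miRNA genes of these Treg cells, and nearly all counts of the 6 genes fell on them. Together the 6 genes held 1138 of the miRNA counts, or 7.23%. Per library their share was 7.16%, 4.89% and 8.23% in WT and 6.78%, 5.96% and 9.35% in KO replicates 1 to 3, lowest in replicate 2 and highest in replicate 3 of each genotype. Mir23a had 670 counts and ranked 5 among the miRNA features, and Mir23b had 443 and ranked 7. Ranks and shares rest on records given to a gene, without those that were not unique or fell on more than 1 gene. Mir27a had 17 counts and Mir24-2 had 8, whereas Mir27b and Mir24-1 had 0 in all 6 libraries. In bulk samples, fewer cells of a type and less RNA per cell cannot be told apart. The counts are per hairpin gene, so the 5p and 3p strands were not separated.

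In the GRCm38 build Mir23a spans 75 bases on the forward strand (chr8:84208518-84208592). WT replicates 1 to 3 had 156, 92 and 115 counts, and KO replicates 1 to 3 had 76, 53 and 178. As a share of the library's miRNA counts this was 4.63%, 3.00% and 4.25% in WT and 4.19%, 3.90% and 5.20% in KO libraries. WT replicate 2 was the lowest and KO replicate 3 the highest.

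Mir27a starts 79 bases beyond Mir23a, at chr8:84208672-84208758 (87 bases), and overlaps no other annotated exon. Its counts were 6, 5 and 2 in WT and 0, 0 and 4 in KO replicates 1, 2 and 3. Mir24-2 follows after a further 56 bases, at chr8:84208815-84208921 (107 bases), with 2, 0 and 3 counts in WT and 0, 2 and 1 in KO libraries. On its opposite strand lies another miRNA gene, Mir3074-2 (0 counts), and 85 of its bases overlap Mir3074-2 or the exon of the lincRNA gene Gm26532. The strand setting is not given in the sources used here, so whether reads of Mir24-2 and Mir3074-2 were kept apart is not known. Mir27a and Mir24-2 reached 10 counts in 0 of 6 libraries.

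The 74 bases of Mir23b (chr13:63300484-63300557, forward strand) lie between exons of 2010111I01Rik. WT replicates 1 to 3 had 77, 53 and 103 counts and KO replicates 1 to 3 had 47, 26 and 137, which is 2.29%, 1.73% and 3.80% and 2.59%, 1.91% and 4.00% of the miRNA counts. In each genotype replicate 3 was the highest and replicate 2 the lowest, and the genotypes overlap. Each KO value lay above the WT value of the same replicate number, but the numbers were not shown to pair the samples. Mir27b (chr13:63300712-63300784, 73 bases) and Mir24-1 (chr13:63301208-63301275, 68 bases) follow 154 and 423 bases further on. A count of 0 in all libraries allows each of them a share of up to 0.0191% of the 15741 miRNA counts, or 0.677% of the count of Mir23b (3 counts over all libraries, for counting error only).

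Mir27b and Mir24-1 are the members whose whole hairpin lies inside annotated exons of another gene on the same strand. All 73 bases of Mir27b and all 68 of Mir24-1 fall in exons of 2010111I01Rik in GENCODE vM21, and Mir24-1 also lies inside Mir3074-1 on the opposite strand. Mir23a, Mir27a and Mir23b overlap no other exon. By its default setting HTSeq assigns a read that falls on more than 1 gene to neither, but the setting used is not given in the sources used here. Across the 1195 table features placed by GENCODE vM21, a count was seen for 4 of the 190 that lie wholly inside same-strand exons of other genes (2.11%), for 18 of the 99 that lie partly inside them (18.2%), as Mir24-2 does by 2 bases, and for 155 of the 906 with no such overlap (17.1%). With exons on either strand these were 11 of 255 (4.31%), 21 of 121 (17.4%) and 145 of 819 (17.7%). The part of this overlap in the counts of Mir27b, Mir24-1 and Mir24-2 was not tested. Nor was the part of shared sequence in the counts of any member. Whether mature miR-27b or miR-24 was present cannot be told from these counts of 0. The gene 2010111I01Rik itself had 5, 3 and 9 counts in WT and 1, 4 and 9 in KO libraries.

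**Figure D1:**
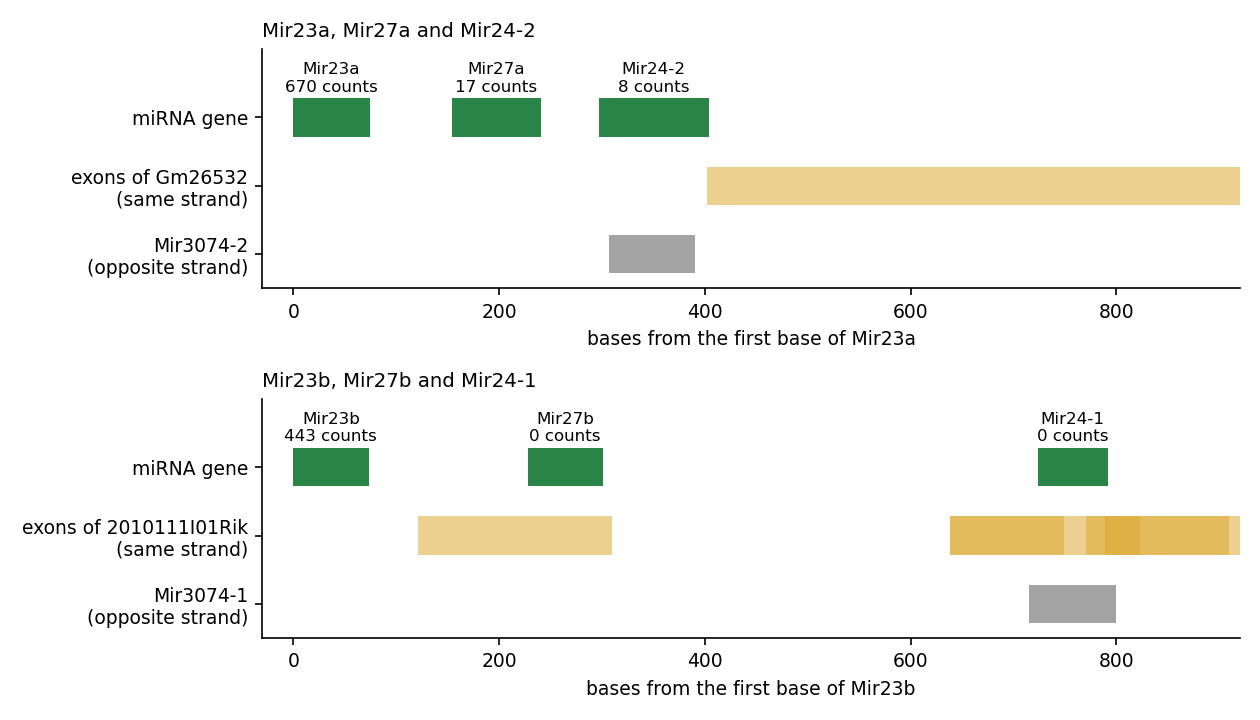
Map of the Mir23a cluster (top) and the Mir23b cluster (bottom), in bases from the first base of the first hairpin, with miRNA hairpins in green, exons of another gene on the same strand in yellow (darker where exons of several transcripts overlap) and the miRNA gene on the opposite strand in grey. Numbers are counts over the 6 libraries: Mir27b and Mir24-1, with 0 counts, sit inside exons of 2010111I01Rik, and Mir23b, with 443, does not.

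Within a library, Mir23a and Mir23b were counted far above the other hairpins of their clusters. To compare genes of different length, counts were divided by hairpin length and are given per 100 bases, without scaling to library depth, since each pair is compared in the same library. On this scale Mir23a had 148.9 ± 63.9 (SD, n = 6), Mir23b 99.8 ± 55.0, Mir27a 3.26 ± 2.95 and Mir24-2 1.25 ± 1.13, with Mir27b and Mir24-1 at 0. Over all libraries Mir23a was 45.7 times Mir27a and 119.5 times Mir24-2 per length. The raw totals of Mir23a, Mir27a and Mir24-2 were 670, 17 and 8. Dividing by hairpin length (75, 87 and 107 bases) raised both ratios. The part of reads without a unique alignment in the count of Mir24-2 was not tested. Mir23b was counted at least 146-fold above Mir27b and at least 136-fold above Mir24-1 per length. Here 3 counts over the 6 libraries were the bound for a count of 0, which covers counting error only. Both hairpins at 0 lie wholly inside exons of 2010111I01Rik, so these folds set no lower bound on a difference in miRNA level.

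Mir23a was above Mir27a, Mir24-2 and Mir23b in 6 of 6 libraries. In an exact paired permutation test over the 6 libraries (two-sided), these 3 pairs had p = 0.0312, the smallest p that 6 libraries can give, and an adjusted p of 0.0563 over the 9 pairs compared. Over the 4 pairs in which neither member was at 0 throughout, a family chosen after seeing the data, the adjusted exact permutation p was 0.0417, so the side of 0.05 on which it falls depends on which pairs are counted. Where the other member had a count of 0 in every library, as Mir27b and Mir24-1 did, the direction could go no other way and no p is given. Mir27a and Mir24-2, next to each other in the order, differed by 2.01 ± 3.20 per 100 bases (SD, n = 6, exact permutation p = 0.250, adjusted 0.281), which is less than the spread between libraries. Mir27a and Mir24-2 each had a count in 4 libraries and 0 in the other two.

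Between the clusters, Mir23a exceeded Mir23b by 49.1 ± 30.2 counts per 100 bases (SD, n = 6), or 1.49 times over all libraries. The hairpins of both genes share a run of 20 bases, and the part of shared sequence in this split was not tested. Of the counts of both genes, Mir23b made up 33.0%, 36.6% and 47.2% in WT replicates 1 to 3, against 38.2%, 32.9% and 43.5% in KO replicates 1 to 3. The share was highest in replicate 3 of each genotype, and the 95% Wilson interval of WT replicate 3 (40.7% to 53.9%) does not overlap that of WT replicate 1 (27.3% to 39.3%). These were the highest and the lowest WT library, picked after their values were seen, and the intervals cover counting error only. The genotype means of the share, 38.9% ± 7.40 (SD, n = 3) and 38.2% ± 5.29 (SD, n = 3), differed by less than the spread between libraries (exact permutation test, two-sided, p = 0.9), and the sign of the difference of -0.744 percentage points turned without WT replicate 3 (3.41) or KO replicate 2 (1.90).

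**Figure D2:**
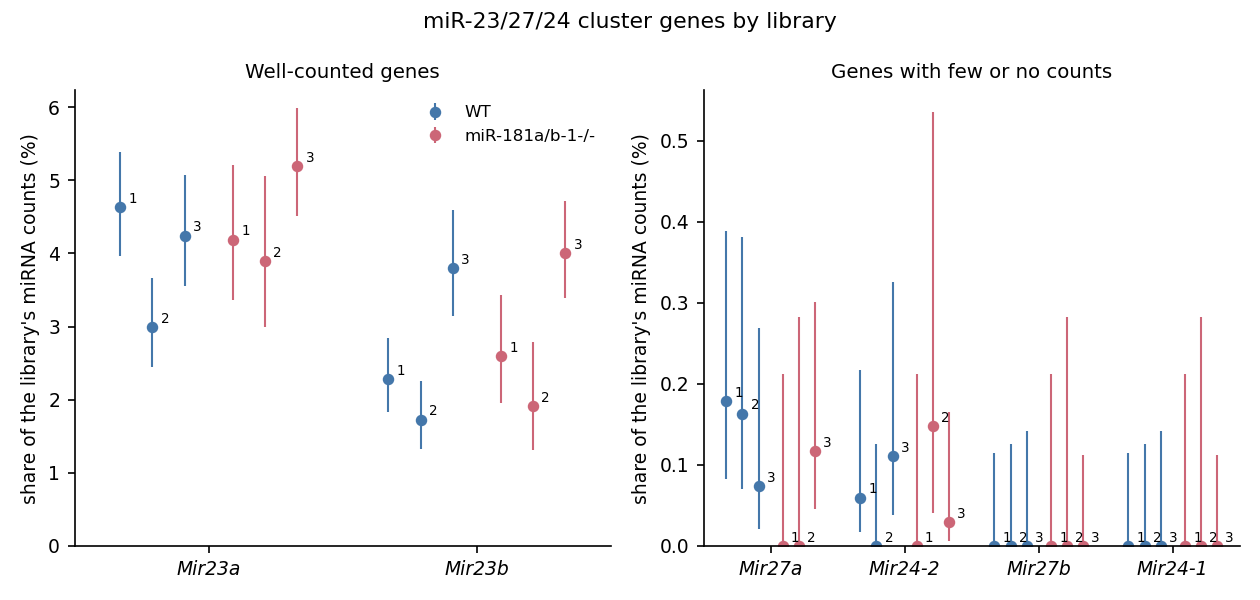
Share of each library's miRNA counts (%) on the 6 genes, with Mir23a and Mir23b on the left and the other 4 on a smaller scale on the right. Points are libraries, numbered by replicate, and bars are 95% Wilson intervals, which cover counting error only. The WT (blue) and KO (miR-181a/b-1-/-, red) points overlap for every gene with counts, and for Mir23b replicate 3 is the highest of each genotype.

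Mir23a and Mir23b did not differ by more than their spread between KO and WT Treg cells, and the miR-23 counts did not separate the genotypes. The features with at least 10 counts in at least 3 libraries were 23, among them Mir23a and Mir23b but none of the other 4 genes. TMM normalization and the quasi-likelihood test of edgeR were applied to them. In TMM-normalized counts per 1000, Mir23a had 49.6, 35.6 and 44.8 in WT and 47.7, 35.7 and 59.2 in KO replicates 1, 2 and 3. Replicate 2 was the lowest of each genotype, and the groups overlapped. The log2 fold change of Mir23a was 0.14 (standard error 0.32, 95% interval -0.50 to 0.78, adjusted p = 0.933 over the 23 features).

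Mir23b had 24.5, 20.5 and 40.1 TMM-normalized counts per 1000 in WT and 29.5, 17.5 and 45.6 in KO replicates 1, 2 and 3. It differed by 0.16 on the log2 scale (standard error 0.34, 95% interval -0.53 to 0.84, adjusted p = 0.933 by the same edgeR test). Of the 23 features 4.35% were called at an adjusted p under 0.05 and 8.7% had groups that did not overlap, and neither Mir23a nor Mir23b was among either. The feature called was Mir6236, also the only one of the 23 at an unadjusted p under 0.05, and it and Mir15b were those without overlap (both named after their values were seen). The number of features called was 0 without WT replicate 1, 2 or 3, without KO replicate 3, without a count filter and with all genes together. DESeq2 on the same features called neither Mir23a nor Mir23b. The 95% intervals moved with the libraries and the scaling. For Mir23b the interval was -1.50 to 0.49 without KO replicate 3 and -1.25 to 0.51 without WT replicate 2. In the other direction it was -0.29 to 1.14 without KO replicate 2 and -0.50 to 1.11 without WT replicate 3. For Mir23a it was -1.08 to 0.56 without WT replicate 2 and -0.60 to 1.05 without WT replicate 1. With all genes together the lower limits were -0.85 for both genes. The sign depended on scaling and on single libraries. With all 1391 well-counted genes normalized together the log2 fold changes were -0.23 for Mir23a and -0.15 for Mir23b, where the median of the miRNA features was itself -0.27 and that of all genes -0.004. The miRNA features held 1.52%, 1.37% and 1.112% of the gene counts in WT and 1.08%, 0.697% and 1.112% in KO replicates 1 to 3, and records on no annotated gene made up 9.01%, 10.2% and 9.94% in WT against 10.7%, 13.1% and 13.1%. No KO library lay above a WT library in the first or below one in the second, and the part of these shares in the fold changes was not tested. It also turned negative without WT replicate 2 (-0.26 for Mir23a, -0.37 for Mir23b) or KO replicate 3 (-0.29 and -0.50), and for Mir23a without WT replicate 3 (-0.02).

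**Figure D3:**
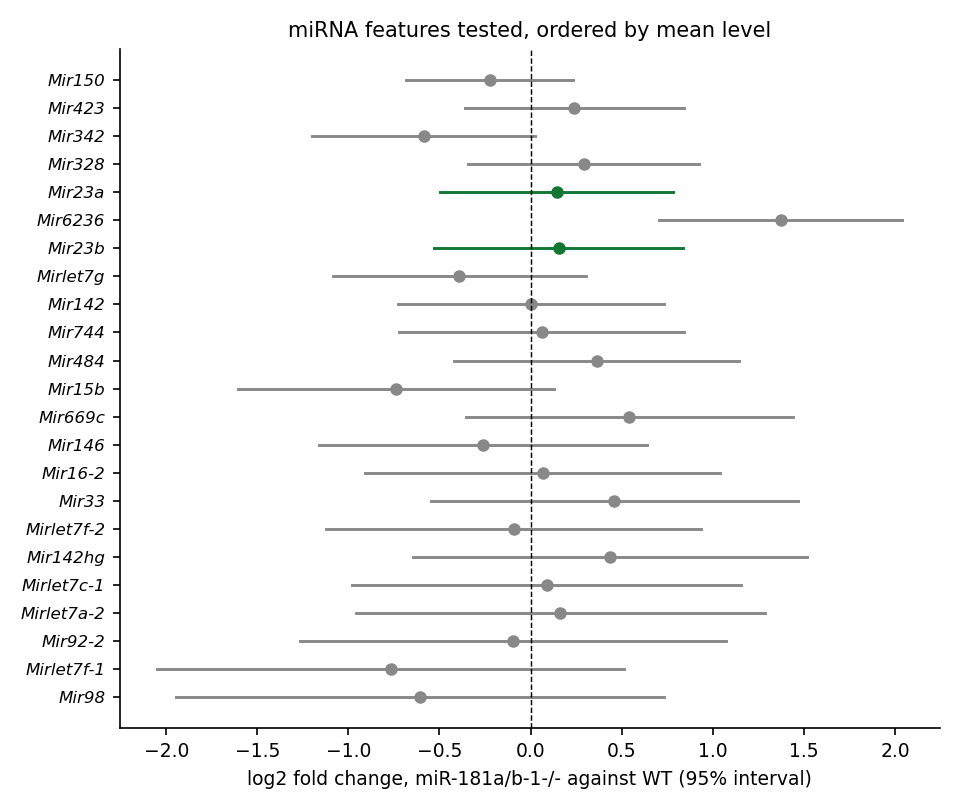
Log2 fold change of the 23 miRNA features tested, KO (miR-181a/b-1-/-) against WT, with 95% intervals from edgeR's quasi-likelihood test, ordered from the highest mean level (top) to the lowest. Mir23a and Mir23b (green) sit at 0.14 and 0.16 with intervals across 0, and both turn negative when all genes are normalized together.

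The genes below the count filter were compared by their shares. Mir27a made up 0.138% ± 0.0564 (SD, n = 3) of the miRNA counts in WT and 0.0390% ± 0.0675 (SD, n = 3) in KO libraries, from 13 and 4 counts. Replicate 3 of KO (0.117%) lay above WT replicate 3 (0.0738%), so the groups overlapped (exact permutation test, two-sided, p = 0.2, where 3 against 3 cannot go below 0.1). The libraries without a Mir27a count, KO replicates 1 and 2, had the fewest miRNA counts, and their 0 allows shares of up to 0.165% and 0.221% by the limit of 3 counts (the 95% Wilson intervals reach 0.211% and 0.282%). Mir24-2 had 0.0567% ± 0.0554 (SD, n = 3) and 0.0588% ± 0.0779 (SD, n = 3), from 5 and 3 counts (exact permutation p = 1).

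The make-up of the Mir23a cluster was also compared by genotype. Mir23a took 95.1%, 94.8% and 95.8% of the cluster's counts in WT and 100%, 96.4% and 97.3% in KO replicates 1, 2 and 3. The means were 95.3% ± 0.510 (SD, n = 3) and 97.9% ± 1.89 (SD, n = 3). The 3 KO libraries lay above those of WT, and the exact permutation test gave p = 0.1 (two-sided), as low as 3 against 3 allows, but the rest of the cluster was only 8, 5 and 5 counts in WT and 0, 2 and 5 in KO libraries. Without KO replicate 1 the difference fell from 2.61 to 1.55 percentage points, and without any other library it lay between 2.40 and 3.37. The Wilson intervals of all 6 libraries overlap, from 87.7% to 99.0% in KO replicate 2 and from 90.7% to 97.5% in WT replicate 1.

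**Figure D4:**
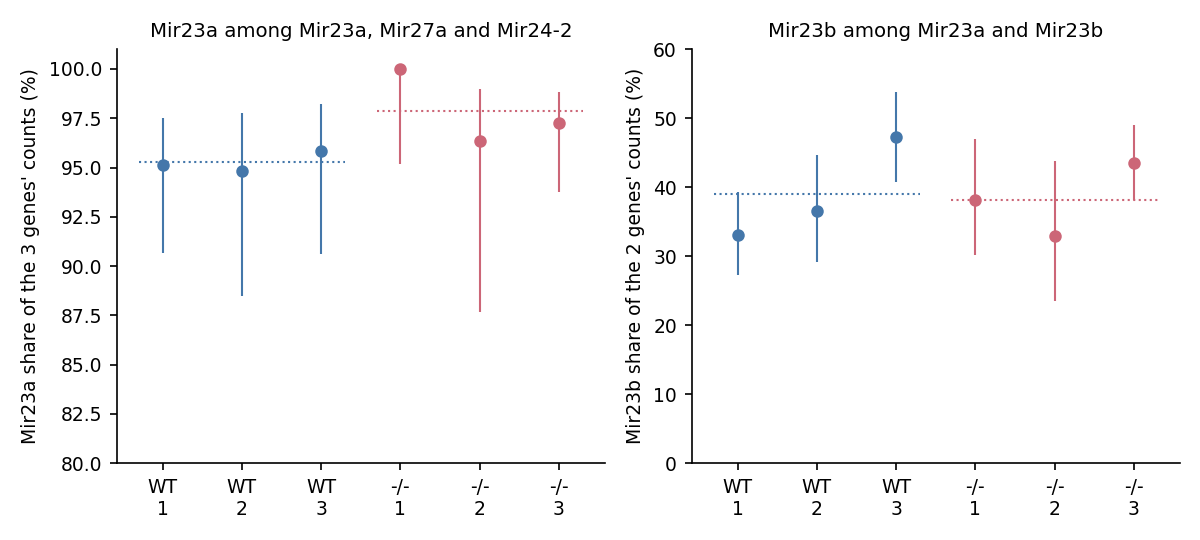
Left, share of the counts of Mir23a, Mir27a and Mir24-2 that fell on Mir23a (%, axis from 80). Right, share of the counts of Mir23a and Mir23b that fell on Mir23b (%, axis from 0). Points are libraries (WT blue, KO, that is miR-181a/b-1-/-, red, numbered by replicate), bars are 95% Wilson intervals and dotted lines are genotype means, 95.3% and 97.9% on the left and 38.9% and 38.2% on the right.

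Among the 23 tested features, the profile over the 6 libraries nearest to that of Mir23b was that of Mirlet7c-1. Likeness was the root mean square difference of log2 TMM-normalized values, each gene centred on its own mean, and it was 0.12 for Mirlet7c-1, 0.32 for Mir23a and 0.40 for Mirlet7f-2. Nearest to Mir23a were Mirlet7c-1 (0.25), Mir150 (0.30) and Mirlet7f-2 (0.31), so Mir23b was not among its nearest 3. Within 50 kb of the clusters the annotation places 12 other genes at Mir23a and 8 at Mir23b, and 0 of them reached 10 counts in 3 libraries. They include Mir181c and Mir181d, 2 undeleted members of the miR-181 family, 29557 and 29731 bases before Mir23a on the opposite strand. Mir181c had 1, 5 and 3 counts in WT and 1, 3 and 0 in KO libraries. Mir181d had 1, 1 and 0 in WT and 1, 0 and 4 in KO libraries.

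Fragments of the mRNAs that make or answer to these miRNAs were also counted, which is no measure of intact mRNA. Of 11 genes for miRNA processing, 9 had a count and 1, Ago2, the slicing Argonaute, passed the filter, with 15, 13 and 17 counts in WT and 12, 6 and 13 in KO libraries. It differed by -0.45 on the log2 scale (standard error 0.36, adjusted p = 0.980 by edgeR over 1391 genes). Of 9 genes reported as targets of miR-23, miR-27 or miR-24, 5 passed the filter: Gata3, Rel, Foxo1, Runx1 and Tgfbr2. In the edgeR test of all 1391 genes, in which 0% were called at an adjusted p under 0.05 and 72 genes had an unadjusted p under 0.05, 0 of these 6 genes passed either threshold. Gata3, the transcription factor of type 2 helper cells, had 47, 32 and 43 counts in WT and 44, 36 and 38 in KO libraries (log2 fold change 0.06, standard error 0.29). Tgfbr2, a receptor for TGF-β, had 13, 11 and 5 counts in WT and 13, 15 and 18 in KO libraries (0.73, standard error 0.38, unadjusted p = 0.0633, adjusted p = 0.974). Rel, Foxo1 and Runx1 had log2 fold changes of 0.10, -0.38 and -0.27, each with its 95% interval across 0.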

How the data were processed

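Small RNA libraries of 3 WT and 3 miR-181a/b-1-/- (KO) Treg cell samples were made with a template-switching kit for tailed RNA. The authors trimmed adapters with Flexbar, removed rRNA reads with Bowtie 2, aligned with STAR and deposited HTSeq counts per gene. The submitters' processing notes name GRCm38.p6. The annotation release, strand and overlap settings are not given in the sources used here, so overlaps were read from GENCODE vM21. Records given to no gene (75.7% to 80.3%) were left out.

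The authors' miRNA table supplied the member names. Its signal columns are deposited counts divided by a size factor per sample, and its log2 fold changes, p-values and Wald score are the authors' DESeq2 output and were not used.

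Counts were compared with edgeR 4.0.16 in R 4.3.3 (quasi-likelihood test, Benjamini-Hochberg adjustment across all genes tested), after a check on simulated data. Single values were compared with exact permutation tests in SciPy 1.17.1, and shares in a library have 95% Wilson intervals. The totals of 1359 to 3422 miRNA counts limit the precision. The p-values measure the spread between pooled sorts. The members and gene lists were chosen with earlier results of these data known. Genes named are the members, neighbours within 50 kb, the 3 features most like each tested member, and listed genes that passed the filter. Also named are Mir6236 and Mir15b (chosen with their values known), cell type markers, and genes given as background.

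Alternatives were DESeq2 1.42.0, other count filters, no TMM factor, all genes normalized together, paralogous genes summed, other denominators, each library left out and the replicate number as a block. The comparison of Mir23b with Mir23a by share, and the adjustment over pairs without a member at 0, were added after seeing the data.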

Additional observations from a re-analysis of the deposited data

How the results depend on the processing

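Neither Mir23a nor Mir23b passed an adjusted p of 0.05 in any alternative run (adjusted p from 0.400 to 0.992), and the number of members called was 0 in each. Their log2 fold changes were positive in 7 and 8 of 12 alternatives and negative in the rest. Without a count filter they were -0.17 for both, and with all genes normalized together -0.23 and -0.15. Leaving out 1 library at a time gave -0.29 to 0.31 for Mir23a and -0.50 to 0.43 for Mir23b. With the replicate block they were 0.13 and 0.10. The replicate numbers were not shown to pair the samples, since deviations of same-numbered libraries over all genes correlated at 0.205, 0.0811 and 0.169, and those of replicate 2 stayed under 0.1. Over all genes every WT library correlated best with the KO library of its own number, but over the miRNA features WT replicate 1 correlated worst with its own (-0.0896, against 0.435 and 0.349 for replicates 2 and 3). This is a hint from the data at most, not from the design. The block left the number of miRNA features called at 1. With the counts of paralogous genes summed, the miR-23 pair had a log2 fold change of 0.03 (adjusted p = 0.983, edgeR). In the fit without a count filter Mir27a was at -1.53 (standard error 0.99, adjusted p = 0.683) and Mir24-2 at -0.53 (standard error 1.24, adjusted p = 0.90).

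The genotype difference in the share of miRNA counts turned negative when scaled to gene counts (in counts per 1000000) for Mir23a (-94.3), Mir23b (-49.3) and Mir24-2 (-2.61), and with Mir150 left out of the miRNA counts for Mir23b (-0.0985 percentage points) and Mir24-2 (-0.0167). With Mir150 left out, the difference went from 0.472 to 0.00712 points for Mir23a and from -0.0993 to -0.224 for Mir27a. The cause was not tested. Without 1 library at a time it ran from -0.00807 to 0.809 points for Mir23a, -0.353 to 0.829 for Mir23b, -0.0421 to 0.0315 for Mir24-2 and -0.138 to -0.0794 for Mir27a. The share of Mir23b in the counts of both miR-23 genes differed by -3.69 to 3.41 points, and that of Mir23a in its cluster by 1.55 to 3.37. The differences Mir23a minus Mir27a, Mir24-2 and Mir23b and Mir27a minus Mir24-2 kept their direction in raw counts, in percent of the miRNA counts and without each library; against a member at 0 the direction could not turn. With p adjusted over the 4 pairs without a member at 0 (chosen after seeing the data), Mir23a minus Mir27a, Mir24-2 and Mir23b, at 145.6, 147.6 and 49.1 counts per 100 bases, passed 0.05 (adjusted exact permutation p = 0.0417).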
